A study of Mus musculus with 12 samples.

Results

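The DNA replication genes are 41 genes whose products license replication origins, unwind and copy DNA, join the new strands, supply deoxynucleotides or start S phase. They were chosen by name from knowledge of the replication machinery, with earlier results of these data known. The choice was made out of 18193 mouse genes that had a probe set of their own on the arrays. Of the 41, 40 were bright enough to be tested, among 12998 genes tested in all. The exception was Tyms. RNA was compared in 3 kinds of mouse kidney sample, each from medulla and from cortex: organoids, progenitor cells and tissue, with 2 Affymetrix arrays in each of the 6 groups. Organoids were differentiated in 3D Matrigel, and progenitor cells were grown on a layer of fibroblast feeder cells. Strain, age and genotype are not given in the sources used here, and no group carries a named allele or drug. The labels call the replicates biological without saying whether they came from separate animals or cultures, so the p-values measure only the spread between these samples.

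DNA is copied once per cell cycle. Before S phase, the origin recognition complex (Orc proteins), Cdc6 and Cdt1 load the ring-shaped MCM helicase onto DNA. In S phase, Cdc45 and the GINS complex join MCM to form the active CMG helicase, polymerases copy the strands behind it on the sliding clamp PCNA, and E2F transcription factors drive many of these genes. Most epithelial cells of the adult kidney are not dividing, and cells placed in culture commonly re-enter the cell cycle.

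Promoter windows were searched for short words that E2F factors are known by. RefSeq promoter windows of the GRCm38.p6 build, running from 250 bases before to 50 bases after a gene's start, were found for 32 of the 41 genes, as 37 windows. At least 1 of 4 E2F words (TTTCGCGC, TTTGGCGC, TTTCCCGC or TTTGCCGC, on either strand, overlapping matches counted once) stood in 13 of the 37 windows, or 35.1%, against 744 of all 32851 windows, or 2.26%. The CCAAT box (CCAAT, either strand) stood in 21 of the 37 windows, or 56.8%, against 37.4% of all windows. TATAAA stood in 3 of the 37, or 8.11%, against 13.6% of all, and the cell cycle word TTTGAA in 5, or 13.5%, against 17.9%. A match is a description of the letters and not a measured binding site, and the windows were not matched for base composition. The 4 windows that held 2 separate E2F matches, the most in any of the 37 windows, are printed. They are Mcm3 (chr1:20820263-20820562), Mcm6 (chr1:128359656-128359955), Mcm7 (chr5:138171834-138172133) and Rfc3 (chr5:151651159-151651458), all on the minus strand and written 5′ to 3′ along the gene. Capitals mark the E2F words or their reverse complements.
Mcm3: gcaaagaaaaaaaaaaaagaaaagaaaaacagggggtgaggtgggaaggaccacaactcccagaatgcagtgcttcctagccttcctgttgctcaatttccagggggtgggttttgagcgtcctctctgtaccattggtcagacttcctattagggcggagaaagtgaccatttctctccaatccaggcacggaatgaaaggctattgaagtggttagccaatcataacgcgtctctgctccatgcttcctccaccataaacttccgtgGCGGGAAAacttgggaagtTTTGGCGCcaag
Mcm6: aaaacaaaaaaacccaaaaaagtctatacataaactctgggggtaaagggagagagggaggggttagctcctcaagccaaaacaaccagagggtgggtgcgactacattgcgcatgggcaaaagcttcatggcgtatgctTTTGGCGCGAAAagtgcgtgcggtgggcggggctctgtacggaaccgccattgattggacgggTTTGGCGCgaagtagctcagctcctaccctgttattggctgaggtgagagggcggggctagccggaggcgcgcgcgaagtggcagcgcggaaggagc
Mcm7: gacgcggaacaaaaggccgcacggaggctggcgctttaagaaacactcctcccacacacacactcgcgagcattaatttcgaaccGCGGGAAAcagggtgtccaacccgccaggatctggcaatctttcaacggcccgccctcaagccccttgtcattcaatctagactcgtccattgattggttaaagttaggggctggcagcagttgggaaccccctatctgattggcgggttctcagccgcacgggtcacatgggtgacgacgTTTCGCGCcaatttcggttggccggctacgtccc
Rfc3: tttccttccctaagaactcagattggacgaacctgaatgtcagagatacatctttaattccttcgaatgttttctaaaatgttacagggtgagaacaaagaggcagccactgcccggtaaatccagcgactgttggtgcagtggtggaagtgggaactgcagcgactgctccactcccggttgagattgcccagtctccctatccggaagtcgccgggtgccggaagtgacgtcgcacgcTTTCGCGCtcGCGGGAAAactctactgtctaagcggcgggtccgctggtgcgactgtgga
In Mcm3 both words lay after the start, in Mcm6 a pair of overlapping words and a further word lay before it, and in Mcm7 and Rfc3 the words lay on both sides of it.

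The values the authors deposited are log2 MAS5 signals, with every array scaled to a trimmed mean of 500 signal units. A level below is such a log2 signal. A log2 difference is taken from signals to which 15.1 units were added before the log, so differences of dim genes are understated. "Rose" and "fell" mean an adjusted p below 0.05 in a limma model of all 12 arrays, adjusted over all 12998 genes. Differences are given with the standard error (SE) of that model.

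The labelled kinds differed in more than cell cycle genes. Of 12 renal tubule markers, 5 were brighter than the median probe set on both arrays of each organoid group and 3 in each progenitor group, against all 12 in each tissue group. All 8 endothelial markers fell in progenitor cells against tissue, with a median log2 difference of -3.51, and so did all 6 tested leukocyte markers, with a median of -3.65. Summed fibroblast marker signals ran from 18743 to 19969 in medulla organoids, from 4180 to 4799 in cortex organoids, from 24685 to 33798 in progenitor cells and from 7320 to 13355 in tissue. On the organoid arrays the Gapdh control probe sets gave a 3′ signal above the 5′ signal by 0.867 to 1.671 log2 units, against -0.405 to -0.298 on progenitor arrays and -0.233 to 0.183 on tissue arrays. The actin control probe sets ran otherwise, with a 3′ signal above the 5′ signal by -0.002 to 0.149 log2 units on organoid arrays, 0.163 to 0.187 on progenitor arrays and 0.938 to 1.629 on tissue arrays. The poly-A control signals had medians of 1.22 to 1.88 on organoid arrays, 7.03 to 7.37 on progenitor arrays and 7.96 to 8.83 on tissue arrays. These values move with the kinds compared below, and their part in the differences was not tested. In bulk RNA, more cells in S phase and more of a transcript per cell cannot be told apart.

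Compared with tissue, progenitor cells had more RNA for nearly the whole replication machinery. Of the 40 genes tested, 37 rose and 0 fell. At an unadjusted p below 0.05, limma also called 37. Among all genes tested, 36.9% rose and 35.8% fell. The median log2 difference of the 40 was 1.97, against 0.034 over all genes tested, and the values ran from -0.41 for Orc1 to 4.61 for Rrm2. In 38 of all 41 genes, every progenitor array lay above every tissue array, a pattern that 37.3% of all tested genes showed. The 3 genes that did not pass were Mcm2, Orc1 and Gins3. The rise was seen in both regions: 36 genes rose between the medulla groups alone, where 31% of all genes did, 37 between the cortex groups alone, where 32.1% did, and 36 in both.

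Organoids had less replication RNA than progenitor cells for most of these genes. Of the 40 genes, 30 fell and 5 rose, where 44.3% of all tested genes fell and 28% rose. The median log2 difference was -1.22, against -0.29 over all genes, with values from -2.84 for Pola1 to 2.17 for Fen1. The genes that rose were Mcm6, Gins3, Gins4, Pold1 and Fen1, and those that did not pass were Orc1, Rfc3, Rfc4, Rpa1 and Ccne1. Between the medulla groups alone 28 fell and 3 rose, where 38.6% of all genes fell and 23.7% rose, and between the cortex groups alone 28 fell and 2 rose, where 37.6% fell and 24.2% rose. In both regions 24 fell and 1 rose, and no gene was called in opposite directions. Here and for the rise in progenitor cells, the share of all genes called alike in both regions was not counted.

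On the probe set read for each gene, organoids still held more of most replication transcripts than tissue. Against tissue, 26 of the 40 genes rose and 6 fell, where 33.1% of all tested genes rose and 46.5% fell. The median log2 difference was 0.815, against -0.28 over all genes. The 6 that fell were Mcm2, Mcm10, Gmnn, Rfc2, Pola1 and Pold2. The 8 that did not pass were Orc1, Gins2, Rfc5, Pola2, Pole2, Prim1, Rpa1 and Rpa2. On another bright probe set, Gins2 (2.17), Prim1 (0.97) and Rpa2 (0.77) rose against tissue and Rpa1 (-0.87) fell.

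Side by side, the 3 comparisons, which share arrays and are not independent, placed 18 genes in a pattern of rose in progenitor cells, fell in organoids against progenitor cells, and rose in organoids against tissue. For 6 genes the organoid level no longer differed from tissue by the test on the probe set read for them, and 5 fell below tissue. Another 4 genes (Mcm6, Gins4, Pold1 and Fen1) rose in all 3 comparisons. How many of all tested genes showed each pattern was not counted. The heat map of all arrays shows these patterns gene by gene.

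**Figure D1:**
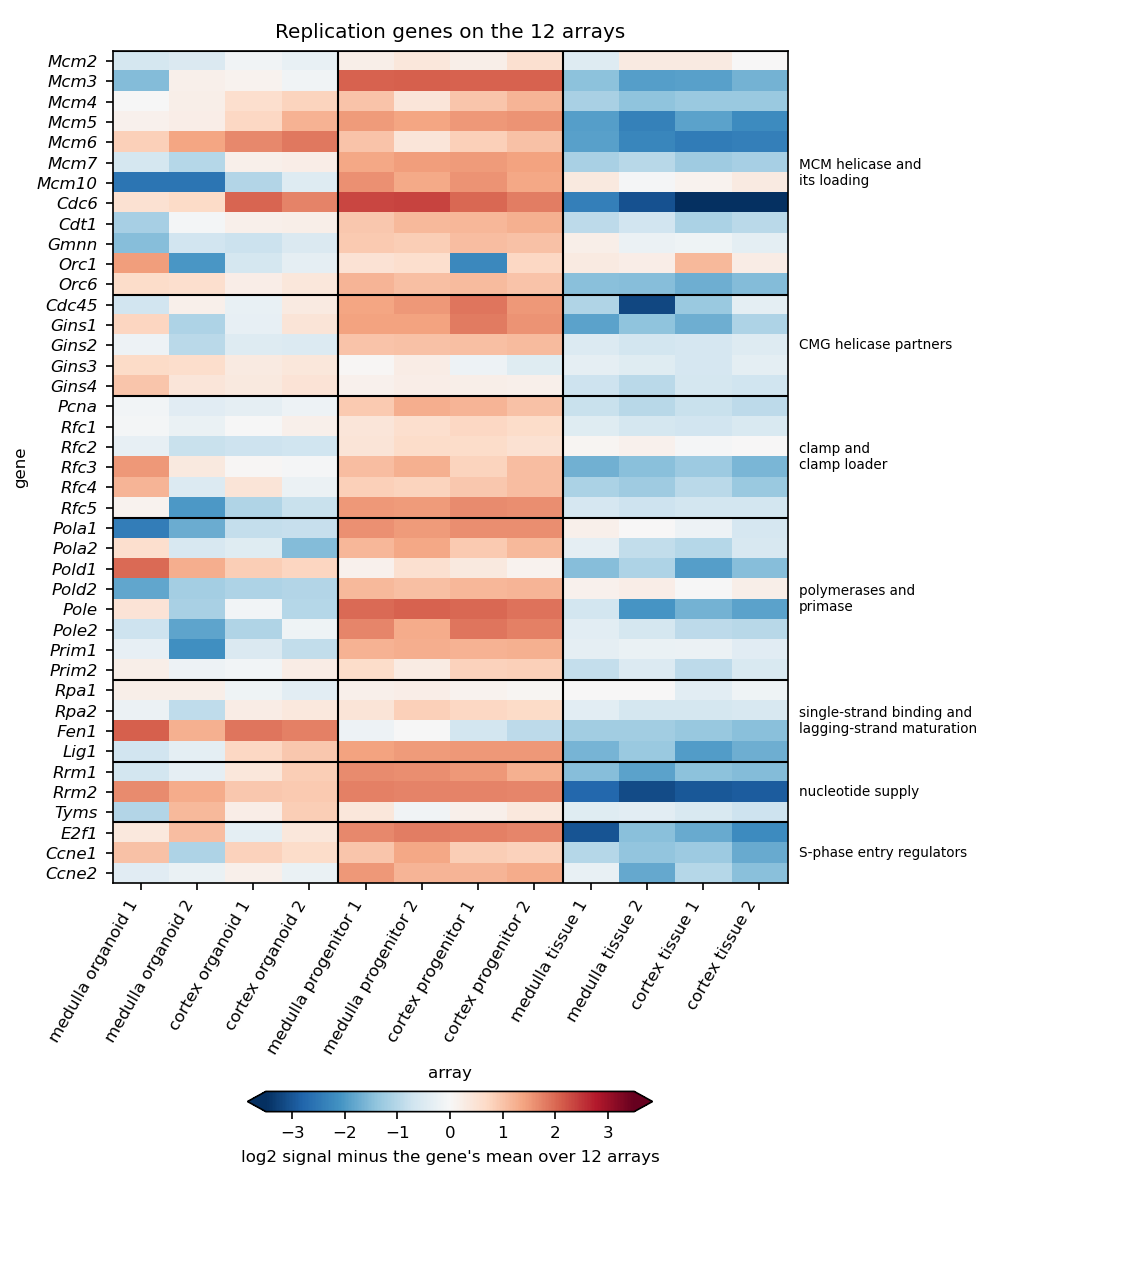
Each row is 1 of the 41 replication genes, grouped by role, and each column 1 array, with medulla left of cortex within organoids, progenitor cells and tissue. Colour gives the log2 signal minus the gene's mean over the 12 arrays, and the progenitor columns are red in nearly every row while the tissue columns are mostly blue.

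**Figure D2:**
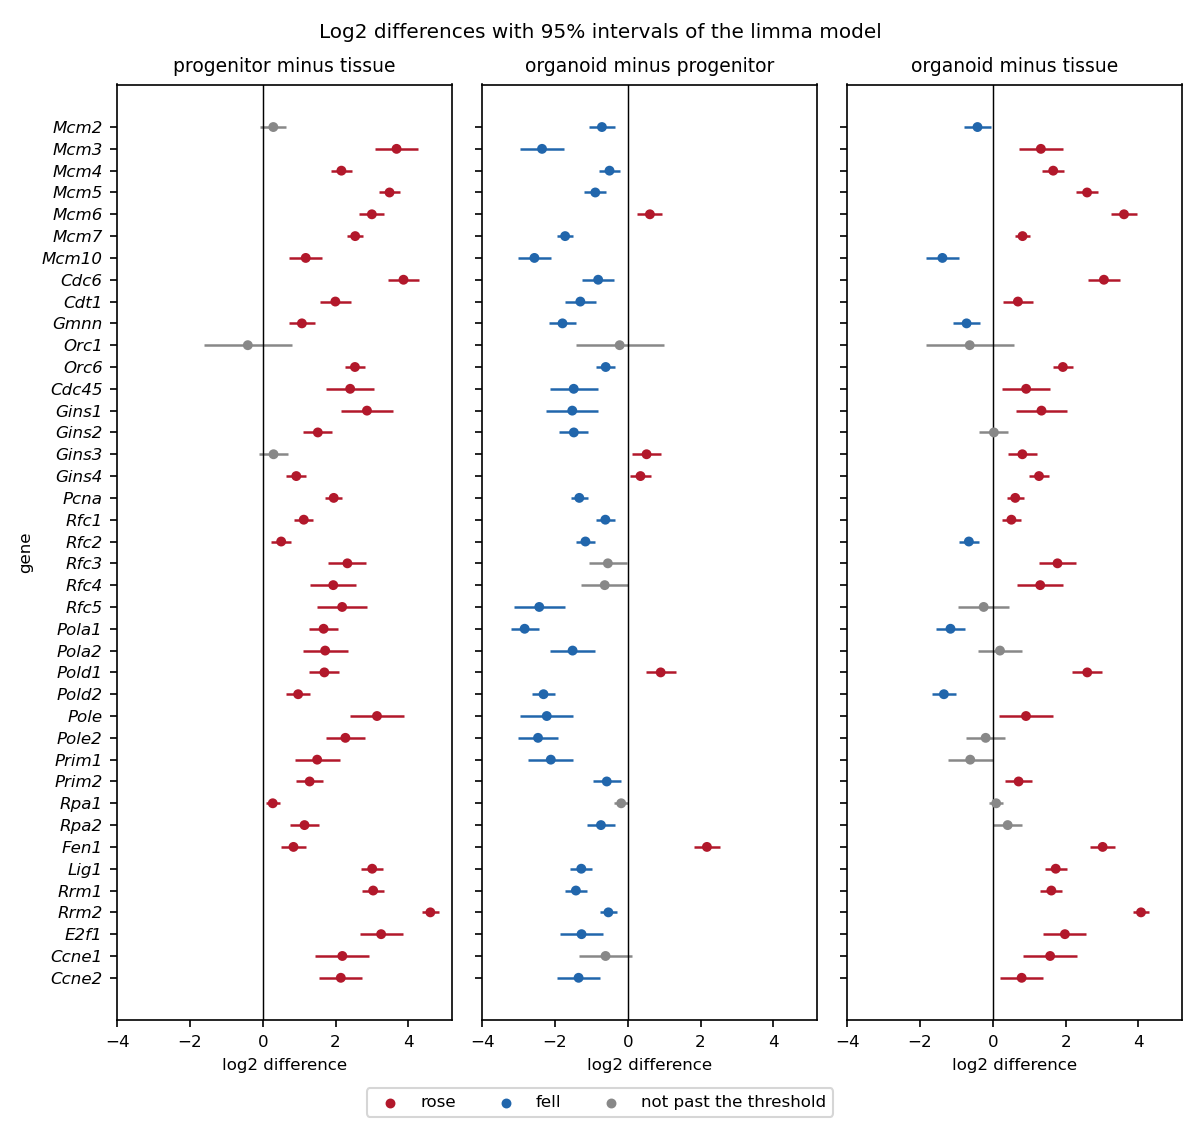
Points give the log2 difference of each of the 40 tested genes in 3 comparisons, with bars for the 95% interval of the limma model and red, blue and grey for genes that rose, fell or did not pass. In the left panel 37 points are red, in the middle panel 30 are blue and 5 red, and in the right panel 26 are red and 6 blue.

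Among the 12 genes of the MCM helicase and its loading, 10 rose and 0 fell in progenitor cells against tissue, with a median log2 difference of 2.35. Cdc6, a loader that helps to place MCM at origins, changed most. Its log2 signals were 6.72 and 6.84 in medulla organoids, 8.23 and 7.93 in cortex organoids, 8.53 and 8.56 in medulla progenitor cells, 8.18 and 7.96 in cortex progenitor cells, 3.80 and 3.15 in medulla tissue and 2.04 and 2.28 in cortex tissue. All progenitor and organoid arrays lay above all tissue arrays. The log2 difference of progenitor cells from tissue was 3.87 ± 0.199 (SE, 4 arrays against 4; adjusted p = 4.1e-09), and that of organoids from progenitor cells was -0.81 ± 0.199 (adjusted p = 0.00281). Between the cortex groups alone, Cdc6 differed by 0.008 in organoids against progenitor cells.

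Mcm7, a subunit of the helicase ring, had the highest mean signal of its role. It read 10.50 and 10.14 in medulla organoids, 11.30 and 11.37 in cortex organoids, 12.47 and 12.58 in medulla progenitor cells, 12.63 and 12.54 in cortex progenitor cells, 10.00 and 10.15 in medulla tissue and 9.88 and 9.97 in cortex tissue. The 4 progenitor arrays stood together at the top, the tissue arrays at the bottom, and the organoid arrays between them but for 1 medulla organoid array just below the highest tissue array. The log2 difference was 2.54 ± 0.098 in progenitor cells against tissue (adjusted p = 3.32e-10), -1.72 ± 0.098 in organoids against progenitor cells (adjusted p = 1.92e-08) and 0.82 ± 0.098 in organoids against tissue (adjusted p = 7.87e-06). Over the 4 bright probe sets of Mcm7, all rose in progenitor cells against tissue, while the difference of organoids ran from -3.29 to 0.489 against progenitor cells and from -0.457 to 2.66 against tissue, past the threshold at both ends.

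The other ring subunits did not move by equal amounts. The log2 difference of progenitor cells from tissue was 3.68 for Mcm3, 3.48 for Mcm5, 2.998 for Mcm6 and 2.16 for Mcm4. Mcm2 was the exception: its log2 signals were 9.24 to 9.75 in organoids, 10.06 to 10.43 in progenitor cells and 9.41 to 10.19 in tissue, so progenitor and tissue arrays overlapped, and the difference of 0.29 ± 0.164 did not pass (adjusted p = 0.131). A dimmer probe set of Mcm2 read 7.79 to 8.87 in organoids, 10.57 to 10.67 in progenitor cells and 7.71 to 7.96 in tissue. On that probe set Mcm2 rose by 2.68 ± 0.194 in progenitor cells against tissue, with no overlap (adjusted p = 9.39e-08 over all bright probe sets).

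Orc1, the largest subunit of the origin recognition complex, depended on the probe set in the same way. The probe set that stood for it was uneven, at 7.65 and 4.15 in medulla organoids, 5.59 and 5.88 in cortex organoids, 6.70 and 6.79 in medulla progenitor cells, 3.95 and 6.91 in cortex progenitor cells, 6.51 and 6.43 in medulla tissue and 7.32 and 6.46 in cortex tissue. Its difference of -0.41 ± 0.554 in progenitor cells against tissue did not pass (adjusted p = 0.52). The other probe set of Orc1 read 2.35 to 4.72 in organoids, 7.74 to 8.03 in progenitor cells and 1.71 to 5.41 in tissue, and rose by 2.90 ± 0.251 in progenitor cells against tissue (adjusted p = 5.17e-07). Orc6, a small subunit of the same complex, rose by 2.53 ± 0.123 in progenitor cells and remained above tissue in organoids by 1.93 ± 0.123 (adjusted p = 2.62e-08).

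Against progenitor cells, 10 of the 12 genes fell in organoids and 1 rose, with a median log2 difference of -0.85. Mcm10, which helps to activate the helicase at origins, fell furthest. It read 4.11 and 4.09 in medulla organoids, 5.64 and 6.21 in cortex organoids, 7.98 to 8.27 in progenitor cells and 6.61 to 7.01 in tissue. All organoid arrays lay below all tissue arrays. The log2 difference was -2.57 ± 0.209 against progenitor cells (adjusted p = 3.89e-07) and -1.39 ± 0.209 against tissue (adjusted p = 5.95e-05). Gmnn, the inhibitor of Cdt1, also fell below tissue in organoids, by 0.72 ± 0.165 on the log2 scale (adjusted p = 0.00159), whereas Cdt1, the MCM loading factor it binds, was 0.69 ± 0.193 above tissue (adjusted p = 0.00573).

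The 5 CMG helicase partners were Cdc45 and the GINS subunits. Against tissue 4 of 5 rose in progenitor cells, with a median log2 difference of 1.51. Gins1 changed most, with log2 signals of 8.71 and 6.88 in medulla organoids, 7.67 and 8.42 in cortex organoids, 9.37 and 9.38 in medulla progenitor cells, 9.77 and 9.54 in cortex progenitor cells, 6.07 and 6.56 in medulla tissue and 6.26 and 6.88 in cortex tissue. Progenitor arrays were all above the organoid arrays, and organoid arrays reached down to the highest tissue array. The difference was 2.86 ± 0.325 in progenitor cells against tissue (adjusted p = 5.92e-06) and -1.53 ± 0.325 in organoids against progenitor cells (adjusted p = 0.0011).

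Gins4, the GINS gene with the highest mean signal, was 1 of 2 partners that rose in organoids against progenitor cells. It read 10.87 and 10.33 in medulla organoids, 10.25 and 10.38 in cortex organoids, 10.06 to 10.14 in progenitor cells and 8.96 to 9.29 in tissue. The groups did not overlap, and the log2 differences were 0.35 ± 0.127 in organoids against progenitor cells (adjusted p = 0.0263) and 0.92 ± 0.127 in progenitor cells against tissue (adjusted p = 3.3e-05). The rise in organoids did not pass under quantile normalization or 75th percentile scaling, nor without any 1 of the 4 progenitor arrays, replicate 2 of cortex organoids or replicate 1 of medulla organoids.

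Gins3 had the smallest change of the 5 partners in progenitor cells. It read 7.32 to 7.67 in organoids, 6.58 to 7.27 in progenitor cells and 6.42 to 6.68 in tissue, and progenitor cells overlapped tissue. The difference of 0.30 ± 0.186 in progenitor cells against tissue did not pass (adjusted p = 0.17), and that of 0.52 ± 0.186 in organoids against progenitor cells did (adjusted p = 0.0253), though not under those 2 scalings, nor without replicate 2 of cortex progenitor cells, replicate 1 of medulla progenitor cells or replicate 2 of cortex organoids. Cdc45, which joins MCM together with the GINS complex, rose by 2.40 ± 0.304 in progenitor cells against tissue. In organoids Cdc45 fell by 1.49 ± 0.304 on the log2 scale against progenitor cells (adjusted p = 0.000819).

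All 6 genes of the clamp and its loader rose in progenitor cells against tissue, with a median log2 difference of 1.94. Pcna encodes the sliding clamp that holds polymerases on DNA. It read 11.81 and 11.51 in medulla organoids, 11.59 and 11.73 in cortex organoids, 12.81 and 13.16 in medulla progenitor cells, 13.10 and 12.92 in cortex progenitor cells, 11.12 and 10.91 in medulla tissue and 11.13 and 10.98 in cortex tissue. The 3 kinds formed 3 separate bands with organoids in the middle. The differences were 1.95 ± 0.11 in progenitor cells against tissue (adjusted p = 9.29e-09), -1.33 ± 0.11 in organoids against progenitor cells (adjusted p = 4.32e-07) and 0.62 ± 0.11 in organoids against tissue (adjusted p = 0.000236).

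The Rfc1 to Rfc5 proteins form the loader that opens the clamp. Rfc3 rose most in progenitor cells: it read 9.20 and 8.03 in medulla organoids, 7.72 and 7.66 in cortex organoids, 8.48 to 8.93 in progenitor cells and 5.998 to 6.40 in tissue, a difference of 2.33 ± 0.238 from tissue (adjusted p = 2.32e-06). Its organoid arrays spread on both sides of the progenitor arrays, and the difference of -0.55 ± 0.238 from progenitor cells did not pass (adjusted p = 0.0551). The other bright set of Rfc3 fell by 1.83 ± 0.374 on the log2 scale in organoids against progenitor cells (adjusted p = 0.000782). Rfc2 rose least, by 0.51 ± 0.122 (adjusted p = 0.0026), at 8.99 to 9.48 in organoids, 10.22 to 10.40 in progenitor cells and 9.73 to 9.92 in tissue. On this set Rfc2 fell below tissue in organoids, by 0.66 ± 0.122 on the log2 scale (adjusted p = 0.000336). Its other 2 bright sets went the opposite way, at 1.40 ± 0.176 and 2.78 ± 0.15 above tissue in organoids (adjusted p = 1.12e-05 and 4.78e-09 in limma), and at -0.087 and 0.052 in progenitor cells against tissue they did not pass. The other loader genes rose in progenitor cells by 1.13 (Rfc1), 1.94 (Rfc4) and 2.18 (Rfc5). Against progenitor cells in organoids, Rfc5 fell by 2.43 ± 0.318 on the log2 scale (adjusted p = 2.37e-05), while Rfc4 differed by -0.63 ± 0.292 and did not pass (adjusted p = 0.069). The other bright set of Rfc4 fell by 3.13 ± 0.162 on the log2 scale against progenitor cells (adjusted p = 7.34e-09) and by 0.76 ± 0.162 against tissue (adjusted p = 0.000929), whereas the set that stood for it was 1.30 ± 0.292 above tissue.

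All 8 polymerase and primase genes rose in progenitor cells against tissue, with a median log2 difference of 1.68. Pole, the catalytic subunit of the leading-strand polymerase epsilon, rose most. It read 7.48 and 5.86 in medulla organoids, 6.91 and 5.999 in cortex organoids, 8.98 and 9.05 in medulla progenitor cells, 9.002 and 8.88 in cortex progenitor cells, 6.34 and 4.91 in medulla tissue and 5.33 and 5.12 in cortex tissue. Progenitor arrays stood alone at the top and organoid arrays overlapped tissue. The difference was 3.14 ± 0.334 in progenitor cells against tissue (adjusted p = 3.36e-06) and -2.23 ± 0.334 in organoids against progenitor cells (adjusted p = 7.43e-05).

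Prim1, the catalytic subunit of primase, had the highest mean signal of the role, at 8.82 and 6.96 in medulla organoids, 8.62 and 8.26 in cortex organoids, 10.32 to 10.38 in progenitor cells and 8.71 to 8.90 in tissue. It rose by 1.495 ± 0.284 in progenitor cells against tissue (adjusted p = 0.000458) and fell by 2.12 ± 0.284 on the log2 scale in organoids against progenitor cells (adjusted p = 2.93e-05). The other bright set of Prim1 did not pass in organoids against progenitor cells, at -0.53 ± 0.289 (adjusted p = 0.118 in limma). In organoids that set was 0.97 ± 0.289 above tissue (adjusted p = 0.0083 in limma). Pold2, an accessory subunit of the lagging-strand polymerase delta, rose least in progenitor cells against tissue, by 0.97 ± 0.149 (adjusted p = 8.31e-05).

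In organoids against progenitor cells 7 of the 8 fell and 1 rose, with a median log2 difference of -2.17. Pola1, the catalytic subunit of polymerase alpha, which extends the primers, had the lowest value of all 40 genes. It read 5.61 and 6.29 in medulla organoids, 7.19 and 7.22 in cortex organoids, 9.52 to 9.66 in progenitor cells and 7.43 to 8.19 in tissue. Organoid arrays lay below all tissue arrays. The difference was -2.84 ± 0.178 against progenitor cells (adjusted p = 4.3e-08) and -1.16 ± 0.178 against tissue (adjusted p = 6.68e-05). Pold2 behaved alike, at 7.04 to 7.83 in organoids, 9.90 to 10.05 in progenitor cells and 8.85 to 9.09 in tissue, and fell below tissue in organoids by 1.34 ± 0.149 on the log2 scale (adjusted p = 4.13e-06). Polymerases thus included 2 of the 6 genes that ended below tissue, while Pola2, Pole2 and Prim1 differed from tissue by 0.20, -0.20 and -0.62 and did not pass (adjusted p = 0.53, 0.475 and 0.062 in the limma model).

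The 4 genes of single-strand binding and lagging-strand maturation all rose in progenitor cells against tissue, with a median log2 difference of 0.996. Lig1, the ligase that seals Okazaki fragments, rose most. It read 8.26 and 8.59 in medulla organoids, 9.66 and 9.87 in cortex organoids, 10.32 and 10.41 in medulla progenitor cells, 10.44 and 10.44 in cortex progenitor cells, 7.29 and 7.63 in medulla tissue and 6.97 and 7.21 in cortex tissue. No kind overlapped another. The difference was 3.01 ± 0.14 in progenitor cells against tissue (adjusted p = 1.75e-09) and -1.28 ± 0.14 in organoids against progenitor cells (adjusted p = 5.34e-06).

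Rpa1, the large subunit of the single-strand binding protein RPA, had the narrowest range over the 12 arrays of all 41 genes. It read 11.85 and 11.86 in medulla organoids, 11.50 and 11.28 in cortex organoids, 11.73 to 11.88 in progenitor cells and 11.29 to 11.66 in tissue. The rise of 0.27 ± 0.085 in progenitor cells against tissue passed (adjusted p = 0.0117), but not under 75th percentile scaling or without replicate 1 of cortex tissue, and a dimmer probe set of Rpa1 rose by 0.99 ± 0.239. In organoids Rpa1 differed by -0.18 ± 0.085 from progenitor cells (adjusted p = 0.0736) and by 0.093 ± 0.085 from tissue (adjusted p = 0.326), neither of which passed. The dimmer probe set fell in organoids, by 1.87 ± 0.239 on the log2 scale against progenitor cells (adjusted p = 1.83e-05) and by 0.87 ± 0.239 against tissue (adjusted p = 0.00499).

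Fen1, the nuclease that trims Okazaki fragment flaps, had the largest rise of all members in organoids against progenitor cells. It read 12.55 and 11.69 in medulla organoids, 12.32 and 12.21 in cortex organoids, 10.26 and 10.42 in medulla progenitor cells, 9.80 and 9.52 in cortex progenitor cells, 9.23 and 9.24 in medulla tissue and 9.12 and 8.97 in cortex tissue. All organoid arrays lay above all progenitor arrays, and the difference was 2.17 ± 0.159 (adjusted p = 1.57e-07). The other probe set of Fen1 went the opposite way. It read 8.09 and 6.54 in medulla organoids, 7.07 and 7.19 in cortex organoids, 9.55 to 10.06 in progenitor cells and 7.19 to 7.61 in tissue, a fall of 2.42 ± 0.258 on the log2 scale in organoids against progenitor cells (adjusted p = 3.63e-06).

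Of the 3 nucleotide supply genes, Rrm1 and Rrm2 encode the subunits of ribonucleotide reductase, which makes deoxynucleotides. Rrm2, the subunit whose level follows the cell cycle, had the largest rise of the 40 genes in progenitor cells. It read 12.87 and 12.50 in medulla organoids, 12.15 and 12.14 in cortex organoids, 12.98 and 12.95 in medulla progenitor cells, 12.95 and 12.92 in cortex progenitor cells, 8.46 and 8.09 in medulla tissue and 8.26 and 8.30 in cortex tissue. Organoid arrays sat just under the progenitor arrays and far above tissue. The difference was 4.61 ± 0.105 in progenitor cells against tissue, or 24.4-fold (adjusted p = 7e-12), -0.53 ± 0.105 in organoids against progenitor cells (adjusted p = 0.000627) and 4.07 ± 0.105 in organoids against tissue (adjusted p = 1.78e-11). On its other 2 bright probe sets Rrm2 fell further in organoids against progenitor cells, by 1.35 and 2.67 on the log2 scale.

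Rrm1 read 9.49 and 9.83 in medulla organoids, 10.52 and 10.99 in cortex organoids, 11.79 and 11.76 in medulla progenitor cells, 11.66 and 11.37 in cortex progenitor cells, 8.66 and 8.27 in medulla tissue and 8.69 and 8.62 in cortex tissue. The kinds did not overlap. The difference was 3.03 ± 0.139 in progenitor cells against tissue (adjusted p = 1.48e-09) and -1.43 ± 0.139 in organoids against progenitor cells (adjusted p = 1.93e-06). Tyms, thymidylate synthase, could not be tested, since 0 of its 4 own probe sets exceeded the median of both arrays in any group. The set with the highest mean read 4.68 and 6.82 in medulla organoids, 5.93 and 6.57 in cortex organoids, 5.56 to 6.09 in progenitor cells and 4.96 to 5.33 in tissue.

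The 3 S-phase entry regulators rose in progenitor cells against tissue. E2f1, the transcription factor whose targets include many of the genes above, read 7.32 and 8.01 in medulla organoids, 6.59 and 7.35 in cortex organoids, 8.63 and 8.72 in medulla progenitor cells, 8.70 and 8.65 in cortex progenitor cells, 3.91 and 5.49 in medulla tissue and 5.18 and 4.74 in cortex tissue. The 3 kinds did not overlap on this set. The difference was 3.25 ± 0.269 in progenitor cells against tissue (adjusted p = 3.36e-07). In organoids it was -1.27 ± 0.269 against progenitor cells (adjusted p = 0.00107). The other bright set of E2f1 read 5.455 to 7.54 in organoids, 7.25 to 8.205 in progenitor cells and 5.885 to 6.48 in tissue, so organoids overlapped both. Its difference of 0.40 ± 0.254 in organoids against tissue did not pass (adjusted p = 0.162 in limma). Between medulla and cortex organoids that set was at -1.32 ± 0.359 (adjusted p = 0.0307 in limma), and the first set, at 0.63, did not pass.

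Ccne1 and Ccne2 encode the E-type cyclins that activate Cdk2 at the entry into S phase. Ccne1 read 8.99 and 6.89 in medulla organoids, 8.77 and 8.62 in cortex organoids, 8.77 to 9.33 in progenitor cells and 6.21 to 6.96 in tissue. It rose by 2.19 ± 0.338 in progenitor cells against tissue (adjusted p = 8.73e-05), and in organoids it differed from progenitor cells by -0.61 ± 0.338, which did not pass (adjusted p = 0.123). Ccne2 read 6.61 to 7.18 in organoids, 8.18 to 8.51 in progenitor cells and 5.19 to 6.73 in tissue. It rose by 2.15 ± 0.268 in progenitor cells against tissue (adjusted p = 1.41e-05) and fell by 1.35 ± 0.268 on the log2 scale in organoids against progenitor cells (adjusted p = 0.000659).

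The calls were also counted for genes with and without an E2F word in a promoter window, with no test of the difference. In progenitor cells against tissue 36.9% of all tested genes rose. There, 11 of 13 tested genes with a word rose, with a median log2 difference of 2.33. Of 18 tested genes without one, 17 rose, with a median of 1.83. In organoids against progenitor cells 44.3% of all tested genes fell and 28% rose. Of the 13, 8 fell, with a median of -0.89, and of the 18, 14 fell, with a median of -1.004. Among these genes, Mcm6, Gins3 and Pold1 rose with a word and Fen1 without. Each of them fell on another bright probe set.

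Because several results above changed with the probe set, all bright probe sets were compared. Of 24 replication genes with more than 1 bright probe set, 0 had probe sets called in opposite directions in progenitor cells against tissue, against 8.29% of 6366 such genes over the whole array. In organoids against progenitor cells, 8 of the 24 did, or 33.3%, against 29.8% of all such genes. They were Fen1, Gins3, Mcm3, Mcm6, Mcm7, Pold1, Rfc1 and Rfc2. In organoids against tissue 5 did, or 20.8%, against 27.3% of all such genes: Mcm2, Mcm7, Pold1, Rfc2 and Rfc4. There, all bright sets of a gene were called the same way for 7 of the 24, or 29.2%, against 36.8% of all such genes. The median spread between a gene's probe sets was 0.67 in progenitor cells against tissue and 1.64 in organoids against progenitor cells.

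Of the 5 genes that rose in organoids against progenitor cells, 3 were read by a probe set of 1 class. Affymetrix gives the ending _x_at to sets in which some probes may match other transcripts as well. In organoids against progenitor cells, 6 of 11 such sets of replication genes rose and 4 fell, with a median log2 difference of 0.49, whereas 4 of the 61 other sets rose and 50 fell, with a median of -1.43. Over the whole array the medians were -0.16 and -0.09. In organoids against tissue all 11 _x_at sets rose, with a median of 2.60. Of the 61 other sets, 35 rose and 10 fell, with a median of 0.62. Over the whole array those medians were -0.21 and 0.07. Mcm6 and Pold1, like Fen1, were represented by an _x_at set. So were Mcm4, Mcm5, Rrm2 and Ccne1, which makes 7 of the 40 tested genes. In organoids against progenitor cells, Mcm4 was at -0.50 on its _x_at set and -2.53 on the other. Mcm5 was at -0.89 and -2.22, and Ccne1 at -0.61 and -0.46, neither of which passed.

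On its _x_at set, Mcm6 read 10.86 and 11.43 in medulla organoids, 11.72 and 11.89 in cortex organoids, 10.48 to 11.07 in progenitor cells and 7.59 to 8.14 in tissue. On the other set it read 8.06 to 9.10 in organoids, 11.64 to 11.79 in progenitor cells and 8.43 to 8.79 in tissue. The log2 difference of organoids from progenitor cells was thus 0.61 ± 0.158 on the first (adjusted p = 0.00425) and -2.88 ± 0.181 on the second (adjusted p = 3.52e-08). Pold1, the catalytic subunit of polymerase delta, read 10.64 and 9.94 in medulla organoids, 9.52 and 9.42 in cortex organoids, 8.80 to 9.22 in progenitor cells and 6.74 to 7.58 in tissue on its _x_at set. Its other set read 4.21 to 6.77 in organoids, 8.66 to 9.07 in progenitor cells and 7.28 to 7.69 in tissue. The differences of organoids from progenitor cells were 0.90 ± 0.19 (adjusted p = 0.00102) and -2.94 ± 0.266 (adjusted p = 8.38e-07). Both sets of Mcm6, Pold1 and Fen1 rose in progenitor cells against tissue. The sets called opposite to the one that stood for the gene in organoids against progenitor cells were at 2.31 for Mcm3, 0.61 for Rfc1 and -1.01 for Gins3.

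**Figure D3:**
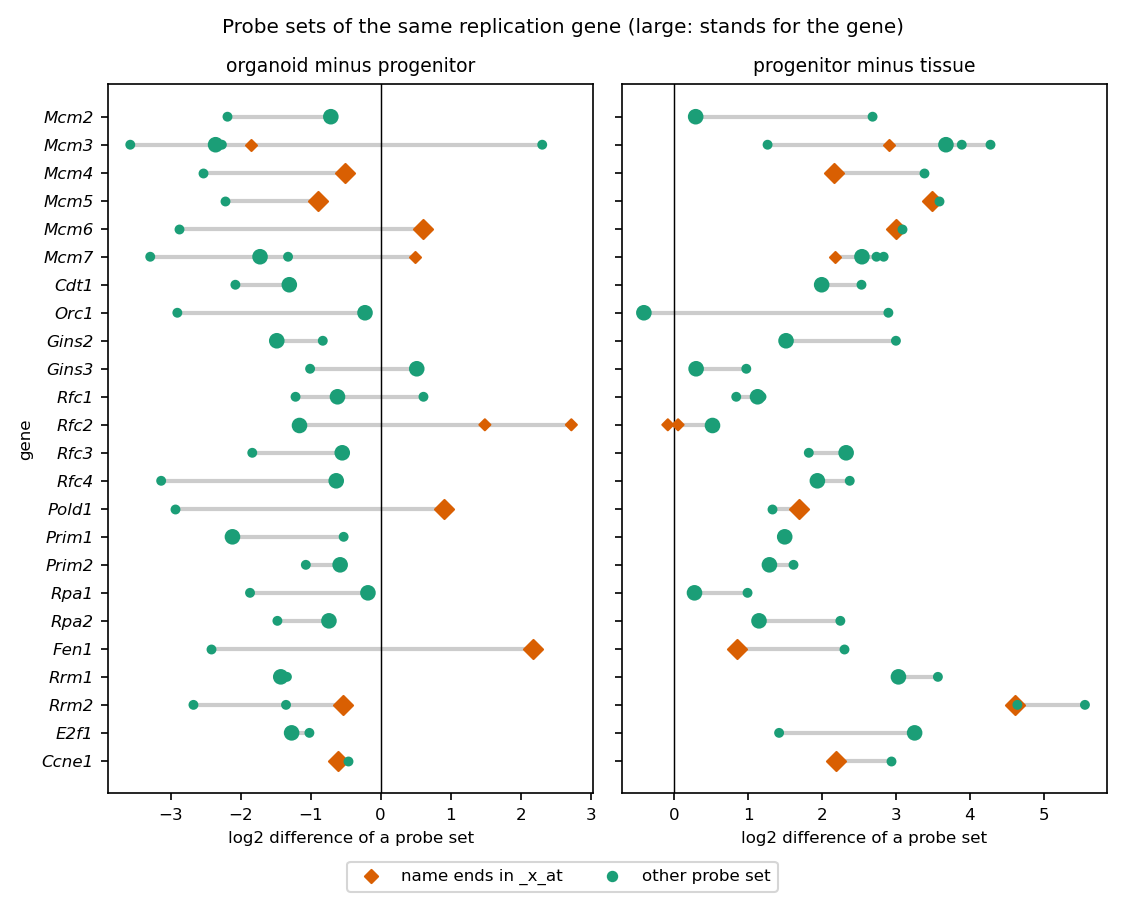
Each row is 1 of the 24 replication genes with more than 1 bright probe set, and each point gives a probe set's log2 difference, with diamonds for _x_at sets, circles for other sets and a large symbol for the set that stands for the gene. Points of 8 genes were called on both sides of 0 in organoids against progenitor cells, and 0 genes were in progenitor cells against tissue.

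Region of origin left the replication genes without a call in tissue and in progenitor cells. Between medulla and cortex tissue 0 of 40 genes passed in the limma model, and 0 at an unadjusted p below 0.05, where 0.308% of all tested genes passed. Between medulla and cortex progenitor cells 0 of 40 passed, where 0.315% of all genes did, and limma's unadjusted p was below 0.05 for 1 gene, Fen1, at 0.67 ± 0.225. The median half-width of the 95% intervals was 0.56 log2 units with 2 arrays against 2.

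In organoids 10 of the 40 genes differed by region, where 18% of all tested genes did. Medulla organoids were lower than cortex organoids for 8 of them, where 10% of all genes were lower and 7.95% higher: Mcm5 (-0.77), Mcm7 (-1.01), Mcm10 (-1.24), Cdc6 (-1.19), Pola1 (-1.07), Rpa2 (-0.83), Lig1 (-1.30) and Rrm1 (-1.08). Rpa1 (0.47) and Rrm2 (0.54) were higher in medulla organoids. On another probe set the region difference of Rpa1 was -0.55 and that of Rpa2 was 1.35, and on the other 2 sets of Rrm2 it was -0.28 and -0.30. Mcm5 (-0.95) and Rrm1 (-0.50) did not pass on their other bright set. Mcm7 passed at -0.74 and -0.61 on other sets but not at -0.34 on another. Adjusted p-values in the limma model ran from 0.000832 for Mcm7 to 0.0441 for Rpa2. Pcna, which did not pass, was at -0.002 with a 95% interval from -0.341 to 0.337. The replicates of medulla organoids differed by a median of 0.656 log2 units over the 40 genes, against 0.11 to 0.268 in the other groups. Fitted on the 4 organoid arrays alone 0 genes passed, and without replicate 2 of medulla organoids 22 passed, of which 13 were lower and 9 higher in medulla. It was 6 without replicate 1 of cortex organoids and 4 without replicate 2. Such fits leave 1 array in a group, which is assumed to vary like the other groups. Summed fibroblast marker signals differed between the same groups, at 18743 and 19969 in medulla organoids and 4180 and 4799 in cortex organoids, and their part in these differences was not tested.

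The fall in organoids against progenitor cells was tested for region dependence, as the medulla difference minus the cortex difference. Of the 40 genes 4 passed, where 4.09% of all tested genes did, and all 4 fell further in medulla, as 2.47% of all genes had a negative value that passed: Cdc6, Rrm1, Lig1 and Mcm7. The largest was Cdc6, at -1.64 ± 0.397 (adjusted p = 0.0412). Rrm1 was at -1.34 ± 0.278 (adjusted p = 0.0245), Lig1 at -1.22 ± 0.281 (adjusted p = 0.0347) and Mcm7 at -0.95 ± 0.195 (adjusted p = 0.0229). Without any 1 of the 4 progenitor arrays, or without replicate 2 of cortex organoids, 0 of the 40 passed. It was 1 without replicate 1 of cortex organoids, 2 without either cortex tissue array, 9 without replicate 1 of medulla organoids, all negative, and 12 without replicate 2, of which 7 were negative and 5 positive. On another probe set of Mcm7 and of Rrm1 the value was -0.32 and -0.70 and did not pass (adjusted p = 0.66 and 0.233 in the limma model). For the rise in progenitor cells against tissue, region dependence passed for 0 of the 40 genes in limma, and for 0 at an unadjusted p below 0.05, where 0.269% of all genes passed.

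**Figure D4:**
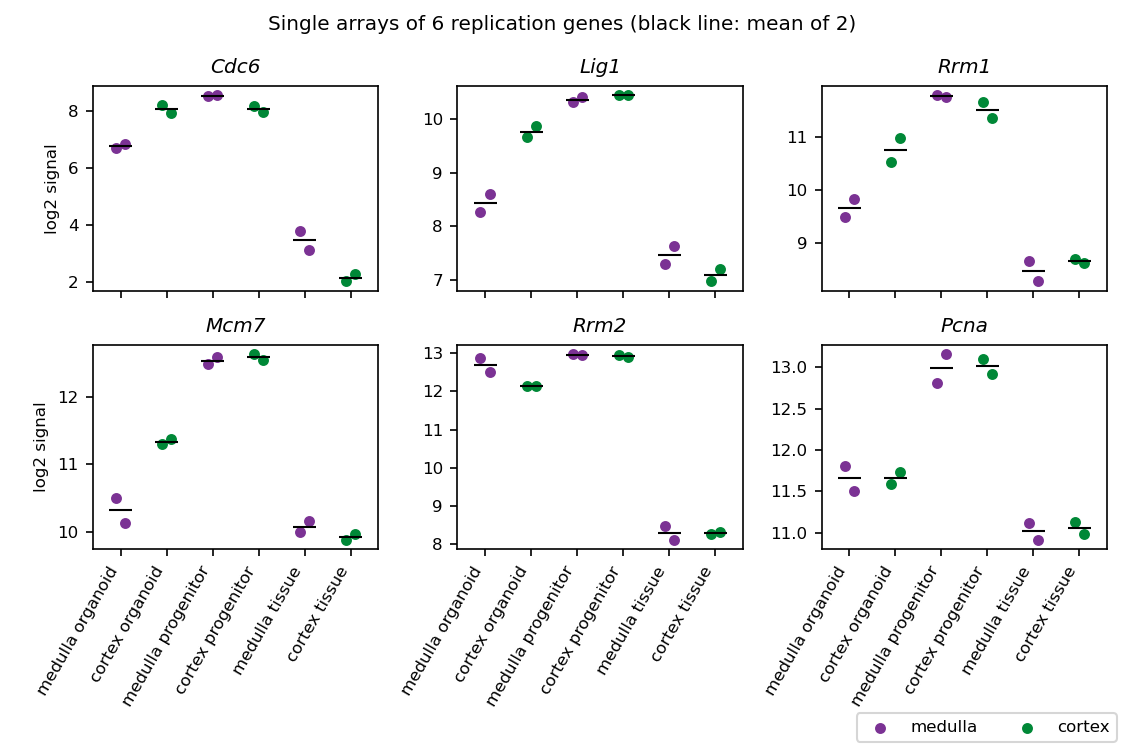
Log2 signals of the 12 arrays are shown for 6 replication genes, with 2 points and their mean in each group, purple for medulla and green for cortex. Medulla organoids lie below cortex organoids for Cdc6, Lig1, Rrm1 and Mcm7, above them for Rrm2 and level with them for Pcna, while the 4 progenitor points of each gene lie close together.

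The rest of the replication machinery was read from a list of 40 further genes, of which 38 could be tested. In progenitor cells against tissue 31 rose and 2 fell, where 36.9% of all genes rose and 35.8% fell. The median log2 difference was 1.31. The largest rises were Pclaf (4.92), a PCNA-binding factor, Hells (4.72) and Uhrf1 (4.46), which act on chromatin and DNA methylation at replication, and Dbf4 (4.14), the activating partner of the kinase Cdc7. Rnaseh2c (-0.60), a subunit of RNase H2, and Mcm9 (-0.53), an MCM relative used in repair, fell. Against progenitor cells 28 fell and 8 rose in organoids, where 44.3% of all genes fell and 28% rose. The largest falls were those of Pclaf (-4.04), Hells (-3.84), Dbf4 (-3.46) and Mcmbp (-2.70), an MCM-binding protein. The 8 that rose were Orc3 (1.22), Rnaseh2c (0.95), Chtf8 (0.88), Dnmt1 (0.77), Orc2 (0.69), Rnaseh2b (0.68), Atad5 (0.60) and Supt16 (0.58). In organoids against tissue 22 rose and 6 fell, where 33.1% of all genes rose and 46.5% fell. The largest differences were Asf1b (3.23), a histone chaperone, Uhrf1 (3.13), Dnmt1 (2.49), the maintenance DNA methyltransferase, and Top1 (-2.12), a topoisomerase that relaxes DNA ahead of forks. Beside Top1, Mcmbp (-1.83), Dna2 (-1.46), Orc5 (-1.25), Pole3 (-1.23) and Rpa3 (-0.35) fell.

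Of 11 tested genes from a further list of nucleotide supply, 8 rose and 3 fell in progenitor cells against tissue. Among all genes, 36.9% rose and 35.8% fell there. Dck (3.28) and Tk1 (2.54), kinases of nucleoside salvage, Ctps (3.12), which makes CTP, and Dut (2.28), which removes dUTP, rose most. Shmt1 (-2.15) and Mthfd1 (-1.93), enzymes of folate metabolism, and Rrm2b (-0.36), the ribonucleotide reductase subunit used outside S phase, fell. Against progenitor cells 6 fell and 2 rose in organoids, or 54.5% and 18.2%, where 44.3% of all genes fell and 28% rose, with the largest falls for Tk1 (-2.55), Dck (-1.99), Atic (-1.66) and Gart (-1.61), of which the last pair act in purine synthesis. Mthfd1 (0.73) and Rrm2b (0.50) rose. In organoids against tissue 5 rose and 3 fell, or 45.5% and 27.3%, where 33.1% and 46.5% of all genes did, led by Ctps (3.09).

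The 26 other regulators of S-phase entry were mixed. In progenitor cells against tissue 16 rose and 6 fell, where 36.9% of all genes rose and 35.8% fell. The largest rises were Cdkn2a (7.20) and Cdkn1a (4.70), which encode inhibitors of the cell cycle, Ccna2 (4.51), cyclin A, and E2f8 (4.41), a repressor of the E2F family. Cdkn1a read 12.40 to 12.57 in organoids, 13.05 to 13.15 in progenitor cells and 7.63 to 8.81 in tissue, so both cultures stood far above tissue. The genes that fell were the inhibitors Cdkn1c (-2.53), Cdkn1b (-0.84) and Cdkn2c (-0.40), the retinoblastoma family genes Rbl2 (-1.54) and Rb1 (-0.92), and E2f5 (-0.26).

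In organoids against progenitor cells 18 of these 26 regulators fell and 3 rose, where 44.3% of all genes fell and 28% rose. The largest falls were E2f7 (-3.12), Cdkn2a (-2.84), Rbl1 (-2.61) and Cdk6 (-2.55), a kinase partner of D-type cyclins. The size of the E2f7 fall is uncertain, since its medulla organoid replicates disagreed, at 0.957 and 8.645. It read 5.67 and 6.87 in cortex organoids and 9.45 to 9.69 in progenitor cells. Cdkn2b (1.24), Rbl2 (0.69) and E2f3 (0.54) rose. In organoids against tissue 11 rose and 10 fell, or 42.3% and 38.5%, where 33.1% of all genes rose and 46.5% fell, with Cdkn1c at -4.88, Cdkn2b at 4.50, Cdkn2a at 4.37 and Cdkn1a at 4.07.

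The 6 measured mitosis genes, kept as a reference for dividing cells, had larger median differences than the replication genes. All 6 rose in progenitor cells against tissue, with a median log2 difference of 5.41, all 6 fell in organoids against progenitor cells, with a median of -3.35, and all 6 rose in organoids against tissue, with a median of 2.04. Top2a, the topoisomerase that untangles chromosomes, read 8.002 to 8.74 in organoids, 11.72 to 12.03 in progenitor cells and 5.88 to 6.65 in tissue. Mki67, the proliferation marker, read 10.29 to 10.90 in organoids, 11.51 to 11.63 in progenitor cells and 5.06 to 6.37 in tissue. The difference between lists was not tested.

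**Figure D5:**
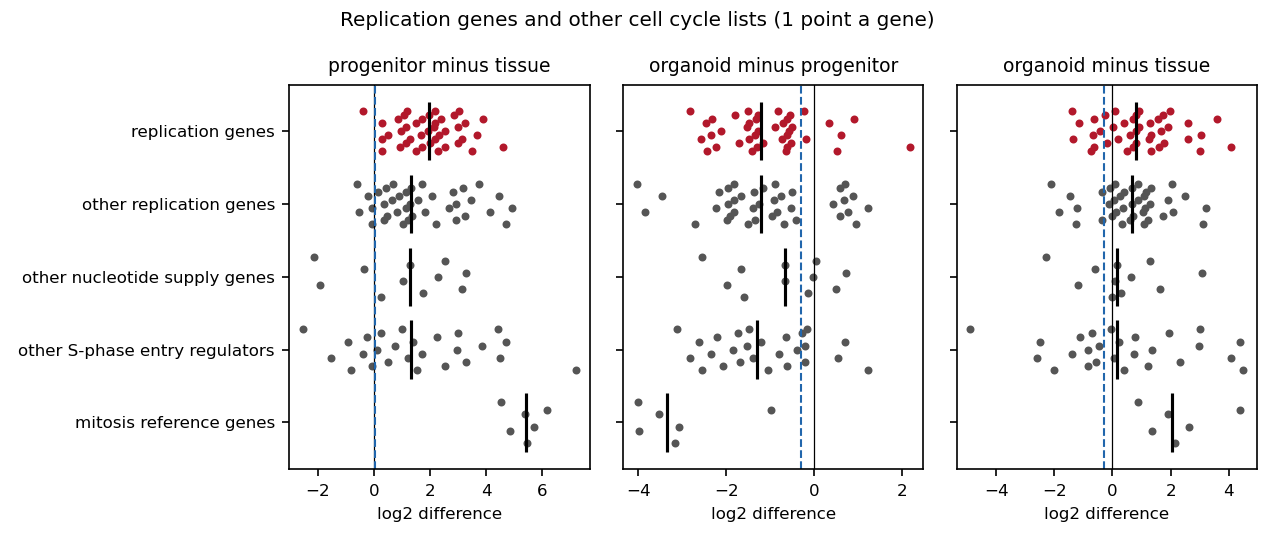
Each point is the log2 difference of 1 gene in the replication genes (red) or in 4 related lists (grey), with a black bar for the list's median and a dashed blue line for the median of all genes tested. In progenitor cells against tissue the median is 1.97 for the replication genes and 5.41 for the mitosis genes, and in organoids against progenitor cells it is -1.22 and -3.35.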

How the data were processed

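RNA of 12 samples was measured on Affymetrix mouse arrays. The authors deposited log2 signals made with MAS5 per the submitters' processing notes (version not given in the sources used here), for 45101 probe sets. Unlogged, every array has the same mean of 500 after 2% trimming.

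The values were unlogged, 15.1 units (the 25th percentile) were added, and log2 was taken. Each gene was read by the own probe set with the highest mean, if some group had it brighter than the median probe set in both replicates. The 6 groups were fitted in limma 3.58.1 (R 4.3.3) with a variance trend over 12998 genes, two-sided, with Benjamini-Hochberg adjustment at 0.05. Differences between kinds average medulla and cortex. Probe sets were fitted likewise. The scripts were tested on simulated data. The number of arrays limits the precision. Alternatives were other scalings, offsets, filters, probe set choices and models, and leaving out each array. Fits without probe sets ending in _x_at or _s_at were added after seeing the data. So were differences within cortex or within medulla, which came from the same fit of all arrays and were counted among the alternatives. Among these they gave the lowest counts in organoids against progenitor cells (30, within cortex) and in organoids against tissue (25, within medulla).

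The members and lists were chosen with earlier results of these data known. All 41 members are accounted for. In each role the text gives full values for the brightest member and those with the largest and the smallest difference, and names every member not called, called against the majority, or with a probe set called the opposite way. Of other lists it names up to 4 called members with the largest differences and those called against the majority.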

Additional observations from a re-analysis of the deposited data

Results flagged for a closer look

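For 4 genes the difference between organoids and progenitor cells itself differed between medulla and cortex in the limma model: the medulla difference minus the cortex difference was -1.644 for Cdc6, -1.336 for Rrm1, -1.224 for Lig1 and -0.952 for Mcm7, with 2 arrays in each group.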

How the results depend on the processing

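In progenitor cells against tissue 36 to 38 of the 40 genes passed under the other settings, in organoids against progenitor cells 30 to 36, and in organoids against tissue 25 to 33; leaving out each array gave 36 to 38, 32 to 37 and 28 to 34. Between medulla and cortex organoids 4 passed with the mean of all probe sets, 6 with the probe set of largest interquartile range, 0 with the compared groups alone and 2 with array weights, and 4 to 22 with 1 array left out. Between medulla and cortex progenitor cells 1 passed with array weights, and 0 to 1 with 1 array left out, 1 of them without either medulla organoid array. Region dependence of organoids against progenitor cells gave 2 with the mean of all probe sets, 1 with the largest interquartile range, 2 with the compared groups alone, 2 without a variance trend, 1 with array weights and 0 to 12 with 1 array left out. With the replicate number as a block, 37, 36 and 33 passed in the 3 comparisons of kinds. That block gave 10 between medulla and cortex organoids and 3 in region dependence. Deviations of same-numbered samples correlated by -0.138 to 0.056 over 15 pairs of groups. The labels do not say whether equal numbers share an animal or culture, and these correlations cannot decide it.

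Of 3146 values of single called genes under alternatives, 2944 kept direction and side of the threshold, 168 lost the threshold and 34 reversed, 0 of them in progenitor cells against tissue and 33 by the choice of probe set, the cause of which was not tested. Organoids against progenitor cells reversed for Mcm3 (2.308), Mcm6 (-2.881), Pold1 (-2.941) and Fen1 (-2.417) without _x_at and _s_at sets. This comparison reversed for Mcm6 (-0.786), Gins3 (-0.246), Rfc2 (1.016), Pold1 (-1.019) and Fen1 (-0.121) with the mean of probe sets. With the largest interquartile range it reversed for Gins3 (-1.007), Rfc1 (0.612), Rfc2 (2.724) and Pold1 (-2.941). The reversal of Cdc6 (0.008) was its difference within cortex, taken from the fit of all arrays. Organoids against tissue reversed for Mcm2 (0.038) and Rfc2 (1.173) with the mean; for Mcm2 (0.497), Mcm7 (-0.457), Gins3 (-0.032), Rfc2 (2.776), Rfc4 (-0.759) and Pold1 (-1.622) with the largest interquartile range; and for Mcm2 (0.497), Mcm7 (-0.457), Rfc4 (-0.759), Pold1 (-1.622) and Fen1 (-0.122) without those endings. Medulla against cortex organoids reversed for Rpa1 (-0.044), Rpa2 (0.26) and Rrm2 (-0.013) with the mean, for Rpa1 (-0.554), Rpa2 (1.349) and Rrm2 (-0.278) with the largest interquartile range, and for Rrm2 (-0.303) without those endings.

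Scaling moved the median of all genes in organoids against tissue to -0.505 (75th percentile) and -0.379 (quantile), against -0.28, and in organoids against progenitor cells to -0.404 and -0.363, against -0.29. With 2 arrays a group, the 95% intervals of region differences had a median half-width of 0.56 log2 units.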

Other observations

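Some other cell cycle genes differed between medulla and cortex organoids, while 0 of the 6 mitosis genes passed in limma (and 0 at an unadjusted p below 0.05), with a median log2 difference of -0.024. Ccnd2, which encodes a D-type cyclin, was higher in medulla organoids by 2.40 ± 0.237 log2 units (SE, 2 arrays against 2; adjusted p = 0.000117 in limma). It read 10.16 and 9.97 in medulla organoids, 7.89 and 7.25 in cortex organoids, 10.33 and 10.32 in medulla progenitor cells, 9.92 and 9.74 in cortex progenitor cells, 9.97 and 9.98 in medulla tissue and 8.82 and 9.48 in cortex tissue. Its fall in organoids against progenitor cells was thus mostly on the cortex side, and the region dependence was 1.91 (adjusted p = 0.0116 in limma). Among the further replication genes, Recql4 (-2.08), a helicase, Hells (-1.29), Ticrr (-1.27), which helps to fire origins, and Cdc7 (-1.21) were lower in medulla organoids. Orc4 (0.69) and Rnaseh2b (0.52) were higher. Recql4 was dim and uneven, at 1.63 and 3.82 in medulla organoids and 7.32 and 5.31 in cortex organoids. Ticrr, at 2.90 and 3.97 against 5.37 and 5.83, lay below the median probe set on every organoid array.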
